A study of Mus musculus with 6 samples.

Results

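The genes described here are 10 targets of the tumor suppressor p53 that are used to read the DNA damage response: *Cdkn1a*, *Mdm2*, *Ccng1*, *Bax*, *Trp53inp1*, *Gdf15*, *Phlda3*, *Eda2r*, *Sesn1* and *Sesn2*. They were chosen by name, with earlier results of these data known. All 10 are among the 34745 genes of the deposited table and among the 13892 genes with enough counts to be tested. Their values were read in the 6 liver tumors of the RNA-seq experiment, 3 from *Prmt3f/f* mice (replicates 7, 66 and 71, labelled WT) and 3 from *Prmt3LKO* mice (replicates 92, 93 and 94, labelled Prmt3-KO). *Prmt3* encodes an arginine methyltransferase. Mice of both groups carried the floxed *Prmt3* allele, and in *Prmt3LKO* mice an Alb-Cre transgene, driven by the albumin promoter, deletes it in hepatocytes. The authors describe the knockout as liver-specific or hepatocyte-specific. Whether it also reached other cells of a tumor cannot be read from these bulk samples. All mice were male and received the same carcinogens. They were given diethylnitrosamine (DEN), a DNA-alkylating agent, when 2 weeks old (25 mg/kg). From 6 weeks they received CCl4, a liver toxin (10%, 0.5 ml/kg, 2 injections per week), and tumors were taken at 26 weeks. There was no sample of liver without carcinogen. The labels do not say whether each tumor came from a separate mouse, so p-values measure the spread between these samples only.

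p53 is a transcription factor that is kept at a low level because Mdm2, a ubiquitin ligase, marks it for degradation. DNA damage activates the kinases ATM and ATR, which free p53 from Mdm2, and p53 then binds DNA as a tetramer and raises the transcription of genes that stop the cell cycle, start apoptosis, limit growth signals or, as *Mdm2* does, switch p53 off again. In the liver, the response restrains hepatocytes that divide with damaged DNA, and several of the same genes also answer to other stresses without p53.

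The binding site of p53 is a tandem of a 10-base consensus element. It was searched for in the RefSeq promoter sequences of GRCm38.p6, 300 bases each, which held 12 windows of 9 of the 10 genes. *Trp53inp1* had no window. The element reads the same on both strands, so a search of one strand covers the other. A tandem without spacer and with at most 1 mismatch, with the central C and G of each element kept, was found in 2 of these windows and in 22 of all 32851 windows (0.067%). The windows with a tandem belong to *Cdkn1a* and *Ccng1*. For each, the 250 bases before a transcription start are shown with the tandem in capitals. They lie at chr17:29090729-29090978 on the plus strand for *Cdkn1a*, before its upstream start, and at chr11:40755287-40755536 on the minus strand for *Ccng1*.
Cdkn1a: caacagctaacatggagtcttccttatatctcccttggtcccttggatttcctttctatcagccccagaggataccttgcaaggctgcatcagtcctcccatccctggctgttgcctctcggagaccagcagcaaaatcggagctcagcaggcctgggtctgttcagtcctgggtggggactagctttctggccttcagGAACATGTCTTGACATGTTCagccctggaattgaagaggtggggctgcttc
Ccng1: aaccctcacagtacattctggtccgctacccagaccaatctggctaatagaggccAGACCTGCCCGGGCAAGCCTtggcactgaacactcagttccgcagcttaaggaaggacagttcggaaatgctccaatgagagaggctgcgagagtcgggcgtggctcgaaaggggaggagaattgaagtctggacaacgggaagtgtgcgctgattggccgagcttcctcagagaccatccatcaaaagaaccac
The tandem lies 51 to 32 bases before the upstream start of *Cdkn1a* and 195 to 176 bases before the start of *Ccng1*. The other window of *Cdkn1a*, at a start further downstream (chr17:29093519-29093818), held neither a tandem nor an element. Which of these starts the tumors used was not measured. A single element without mismatch was found in 2745 of all windows (8.36%) and in 5 of the 12 windows, each of another gene. Besides *Cdkn1a* and *Ccng1*, these were *Mdm2*, *Bax* and the internal start of *Sesn1*, shown with the element in capitals at chr10:117710915-117710964 (minus strand), chr7:45467070-45467119 (minus strand) and chr10:41887246-41887295 (plus strand).
Mdm2: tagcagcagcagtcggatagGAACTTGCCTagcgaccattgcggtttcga
Bax: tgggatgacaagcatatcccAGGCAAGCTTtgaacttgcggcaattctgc
Sesn1: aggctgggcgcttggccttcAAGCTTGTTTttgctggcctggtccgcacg
A match is a match of letters only, and binding of p53 was not measured.

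Between 18440244 and 27976598 reads were counted per tumor. Levels are given as CPM, counts scaled to library size by TMM, and levels of different genes are compared only by FPKM, which also divides by gene length. *Prmt3* was 6.60, 8.49 and 10.2 CPM in *Prmt3f/f* replicates 7, 66 and 71 and 2.80, 2.03 and 3.82 CPM in *Prmt3LKO* replicates 92, 93 and 94, so the groups did not overlap in the direction of the labels (log2 fold change -1.55, SE 0.29, edgeR adjusted p = 0.592). The tumors carried hepatocyte RNA throughout, with 12 hepatocyte markers summing to 168560 to 226420 CPM of the total count in *Prmt3f/f* and 181030 to 201120 in *Prmt3LKO* tumors. *Alb* alone gave 11% to 16.1% of the counts of a tumor and so made up most of these sums. *Prmt3f/f* replicate 7 stood apart in several measures, which are given where its values matter. In such bulk samples, fewer cells of a type and less RNA per cell cannot be told apart.

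*Cdkn1a*, which encodes the cyclin-dependent kinase inhibitor p21 that arrests the cell cycle, varied widely among tumors of the same genotype. Its level was 110.1 CPM in *Prmt3f/f* replicate 7, 24.8 in replicate 66 and 40.3 in replicate 71, against 25.8, 75.5 and 57.8 CPM in *Prmt3LKO* replicates 92, 93 and 94. The highest tumor was 4.44 times the lowest in *Prmt3f/f* and 2.93 times in *Prmt3LKO*, and all 3 *Prmt3LKO* tumors lay within the range of the *Prmt3f/f* tumors. The means were 58.4 ± 45.5 and 53.02 ± 25.2 CPM (SD, n = 3 each), with a log2 fold change of -0.14 (SE 0.58, 95% interval -1.48 to 1.20, edgeR adjusted p = 0.989). The interval spans changes of more than 2-fold in both directions. *Cdkn1a* (ENSMUSG00000023067, chr17:29090979-29100722, plus strand) overlaps AC167363.2 on the other strand, and whether the counting used strand is not given in the sources used here.

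*Ccng1*, which encodes cyclin G1, a p53-induced partner of protein phosphatase that acts on Mdm2, was 124.6, 43.6 and 44.4 CPM in *Prmt3f/f* replicates 7, 66 and 71 and 49.8, 67.6 and 77.4 CPM in *Prmt3LKO* replicates 92, 93 and 94. Replicate 7 was above all other tumors, and replicates 66 and 71 were below all 3 *Prmt3LKO* tumors. The log2 fold change was -0.13 (SE 0.42, 95% interval -1.10 to 0.84, edgeR adjusted p = 0.988). *Mdm2*, the ligase that closes the feedback loop on p53, had the same extremes with a smaller range. It was 53.2, 19.5 and 25.4 CPM in *Prmt3f/f* and 24.2, 39.9 and 27.8 CPM in *Prmt3LKO* tumors, in the same order of replicates, with a log2 fold change of -0.092 (SE 0.38, 95% interval -0.97 to 0.78, edgeR adjusted p = 0.989). As for *Cdkn1a*, replicate 7 was highest, replicate 66 lowest and replicate 93 the highest of the *Prmt3LKO* tumors.

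**Figure D1:**
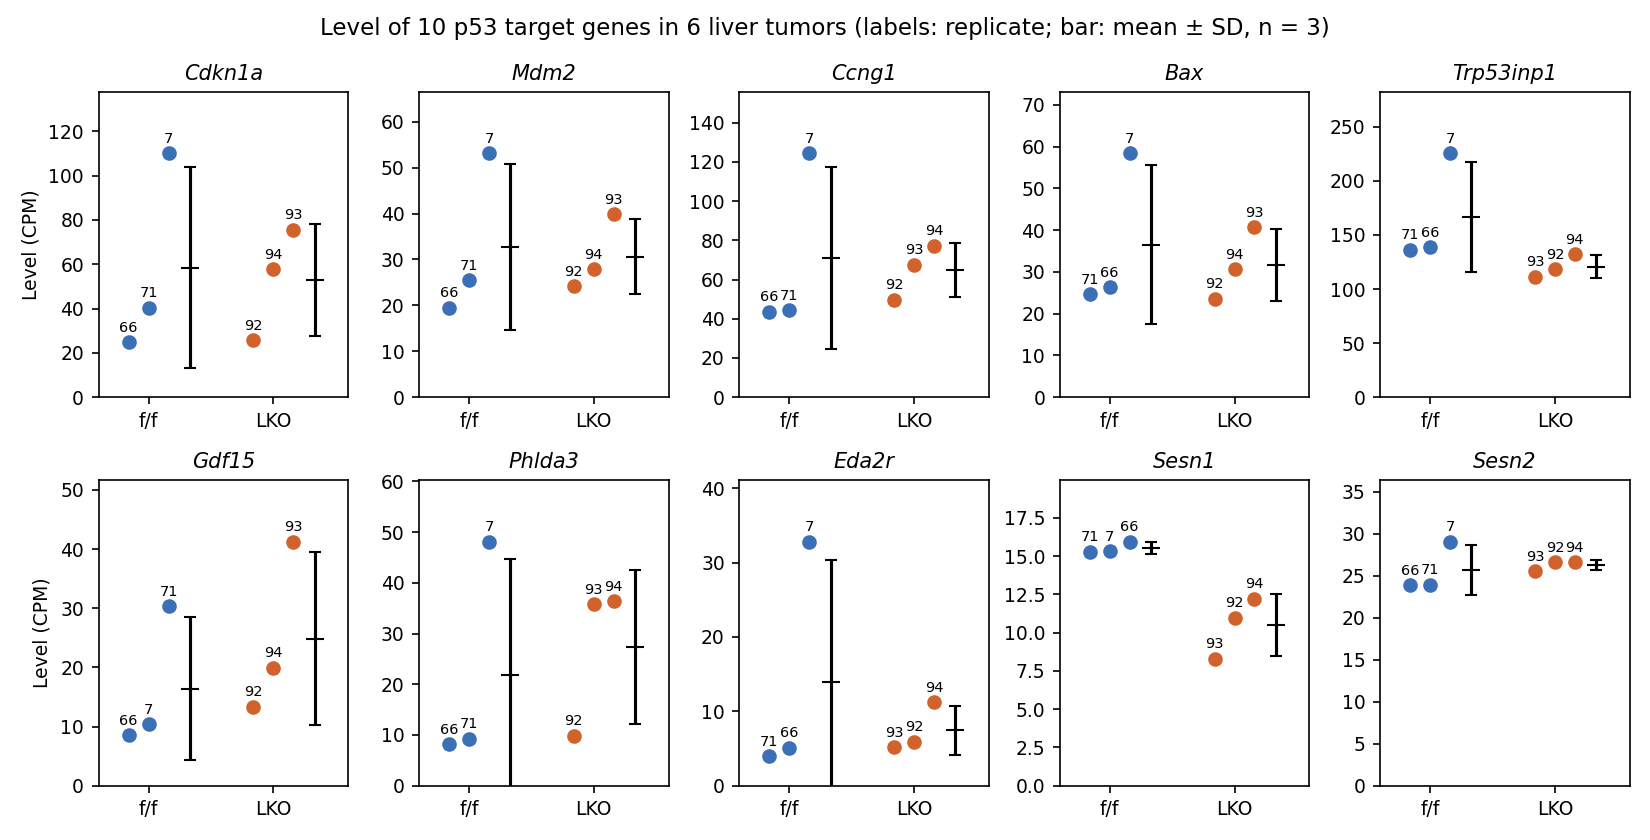
Level of each of the 10 genes in CPM (linear axis from 0) in the 3 *Prmt3f/f* tumors (f/f, blue) and the 3 *Prmt3LKO* tumors (LKO, orange), 1 point per tumor with its replicate number; bars give mean ± SD (n = 3), and a bar that would pass below 0 is clipped at the axis. Replicate 7 is the highest of the 6 tumors for 8 of the 10 genes, and the groups do not overlap for *Sesn1* and *Trp53inp1* only.

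Among the genes of apoptosis and survival, *Bax* encodes the pore-forming protein that opens the outer mitochondrial membrane. It was 58.5, 26.3 and 24.7 CPM in *Prmt3f/f* replicates 7, 66 and 71 and 23.6, 40.7 and 30.7 CPM in *Prmt3LKO* replicates 92, 93 and 94. Apart from replicate 7, the *Prmt3f/f* tumors lay within the range of the *Prmt3LKO* tumors (log2 fold change -0.20, SE 0.36, 95% interval -1.04 to 0.64, edgeR adjusted p = 0.971). *Bax* overlaps the gene model Gm45808 on the same strand, so their reads may have been split.

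*Phlda3*, which encodes a pleckstrin homology domain protein that restrains Akt, was split within both genotypes. It was 48.1, 8.16 and 9.28 CPM in *Prmt3f/f* and 9.83, 35.8 and 36.3 CPM in *Prmt3LKO* tumors, in the same order of replicates. Replicates 7, 93 and 94 were all above 35 CPM, and replicates 66, 71 and 92 all below 10 CPM. The highest tumor was 5.90 times the lowest in *Prmt3f/f* and 3.70 times in *Prmt3LKO*, and the log2 fold change of 0.33 had a 95% interval of -1.42 to 2.07 (SE 0.75, edgeR adjusted p = 0.984).

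*Eda2r*, a receptor of the TNF receptor family for the ligand ectodysplasin A2, was highest by far in a single tumor. It was 32.8 CPM in *Prmt3f/f* replicate 7 but 5.09 and 3.97 CPM in replicates 66 and 71, and 5.89, 5.19 and 11.3 CPM in *Prmt3LKO* replicates 92, 93 and 94. Its counts were the fewest of the 10 genes over the tumors, 103 to 711. The log2 fold change of -0.90 (SE 0.78, 95% interval -2.73 to 0.92, edgeR adjusted p = 0.923) became 0.71 without replicate 7.

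*Trp53inp1*, which encodes a nuclear stress protein that promotes the activity of p53, was 225.8, 138.7 and 136.5 CPM in *Prmt3f/f* and 118.4, 111.3 and 132.4 CPM in *Prmt3LKO* tumors, in the same order of replicates. All 3 *Prmt3LKO* tumors were below all 3 *Prmt3f/f* tumors, though *Prmt3LKO* replicate 94 was only slightly below *Prmt3f/f* replicate 71. The means were 167.0 ± 50.9 and 120.7 ± 10.7 CPM (SD, n = 3 each), and the log2 fold change was -0.47 (SE 0.23, edgeR unadjusted p = 0.0744 and adjusted p = 0.775), or -0.20 without replicate 7. The exact two-sided permutation test over the 6 tumors gave p = 0.1, the smallest value that 3 against 3 allows.

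The sestrins restrain growth signals through mTORC1 and limit oxidative stress, and *Sesn1* was the member with the smallest p. It was 15.3, 15.96 and 15.3 CPM in *Prmt3f/f* replicates 7, 66 and 71 and 10.97, 8.30 and 12.2 CPM in *Prmt3LKO* replicates 92, 93 and 94. The *Prmt3f/f* tumors lay close together, and all *Prmt3LKO* tumors were below them. Means were 15.5 ± 0.373 and 10.5 ± 2.0 CPM (SD, n = 3 each), with a log2 fold change of -0.57 (SE 0.18, 95% interval -0.98 to -0.15, edgeR unadjusted p = 0.0143). After adjustment over all genes tested the edgeR p was 0.640, and the exact two-sided permutation p was again 0.1. Without replicate 7 the log2 fold change was -0.58. *Sesn1* overlaps 9930024M15Rik on the same strand.

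*Sesn2*, which is also induced by the transcription factor ATF4 in amino acid and endoplasmic reticulum stress, varied least. It was 29.1, 23.9 and 23.9 CPM in *Prmt3f/f* and 26.6, 25.6 and 26.6 CPM in *Prmt3LKO* tumors, in the same order of replicates. The 95% interval of its log2 fold change, -0.29 to 0.36, was the narrowest of the 10 genes (0.036, SE 0.14, edgeR adjusted p = 0.988). It overlaps Gm12981 on the same strand.

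*Gdf15*, which encodes a secreted stress cytokine, did not follow the tumor order of *Cdkn1a*. It was 10.4, 8.54 and 30.3 CPM in *Prmt3f/f* replicates 7, 66 and 71 and 13.3, 41.3 and 19.95 CPM in *Prmt3LKO* replicates 92, 93 and 94. Replicate 7, the highest tumor for 8 of the 10 genes, was the second lowest here, and replicate 71 was second only to replicate 93. The log2 fold change was 0.60 (SE 0.57, 95% interval -0.72 to 1.91, edgeR adjusted p = 0.935), 1.40 without replicate 71 (edgeR unadjusted p = 0.0217, adjusted p = 0.574) and 0.017 without replicate 93.

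Per gene length, *Bax* was the most abundant of the 10 genes and *Eda2r* the least, with means over the 6 tumors of 39.5 and 1.55 FPKM. Between them came *Trp53inp1* at 20.1, *Cdkn1a* at 18.4, *Ccng1* at 15.8, *Phlda3* at 12.4, *Sesn2* at 7.47, *Gdf15* at 7.13, *Sesn1* at 3.91 and *Mdm2* at 3.26 FPKM. Every pair of neighbors in this order differed by less than the larger of their SDs among *Prmt3f/f* tumors. In these tumors, for instance, *Trp53inp1* was 23.5 ± 7.66 and *Cdkn1a* 19.4 ± 15.4 FPKM (SD, n = 3).

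None of the 10 genes was called between the genotypes. At an edgeR adjusted p under 0.05 with at least a 2-fold change, 0 of the 10 and 0% of the 13892 genes tested were called, and the adjusted p of the 10 genes ran from 0.640 to 0.989. DESeq2 called 0 of the 10 at the same limits and 0.389% of all genes tested. At an unadjusted p under 0.05 in edgeR, 1 of the 10, *Sesn1*, was lower in *Prmt3LKO* tumors against a background of 4.37% of all genes, and 0 were higher against 2.2%. The groups did not overlap for 2 genes with lower values in *Prmt3LKO*, *Sesn1* and *Trp53inp1*, where 6.6% of all genes did so, and for 0 genes with higher values, where 5.56% did so. By mean, 7 genes were lower and 3 higher in *Prmt3LKO* tumors, and the median log2 fold change was -0.13 against 3.73e-04 over all genes tested.

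The direction of several genes changed when a single tumor was left out. Without replicate 7, the log2 fold change of 5 genes turned, to 0.69 for *Cdkn1a*, 0.44 for *Mdm2*, 0.55 for *Ccng1*, 0.30 for *Bax* and 0.71 for *Eda2r*, that of *Phlda3* moved from 0.33 to 1.64, and 2 of the 10 genes, *Trp53inp1* and *Sesn1*, were lower in *Prmt3LKO* tumors. Without *Prmt3LKO* replicate 92, *Cdkn1a* (0.19), *Mdm2* (0.054) and *Ccng1* (0.034) turned as well, and 4 genes were lower. Without *Prmt3f/f* replicate 66 or 71, *Phlda3* (-0.065 and -0.040) and *Sesn2* (-0.012 and -0.0096) turned, and 9 genes were lower. Without replicate 7, *Ccng1* and *Phlda3* were higher at an unadjusted p under 0.05 in edgeR (0.0329 and 0.0223), with adjusted p of 0.529 and 0.504. *Sesn1* was lower there (edgeR unadjusted p = 0.0236, adjusted p = 0.507). The share of all genes under 0.05 without replicate 7 was not counted, so these p-values have no background beside them.

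**Figure D2:**
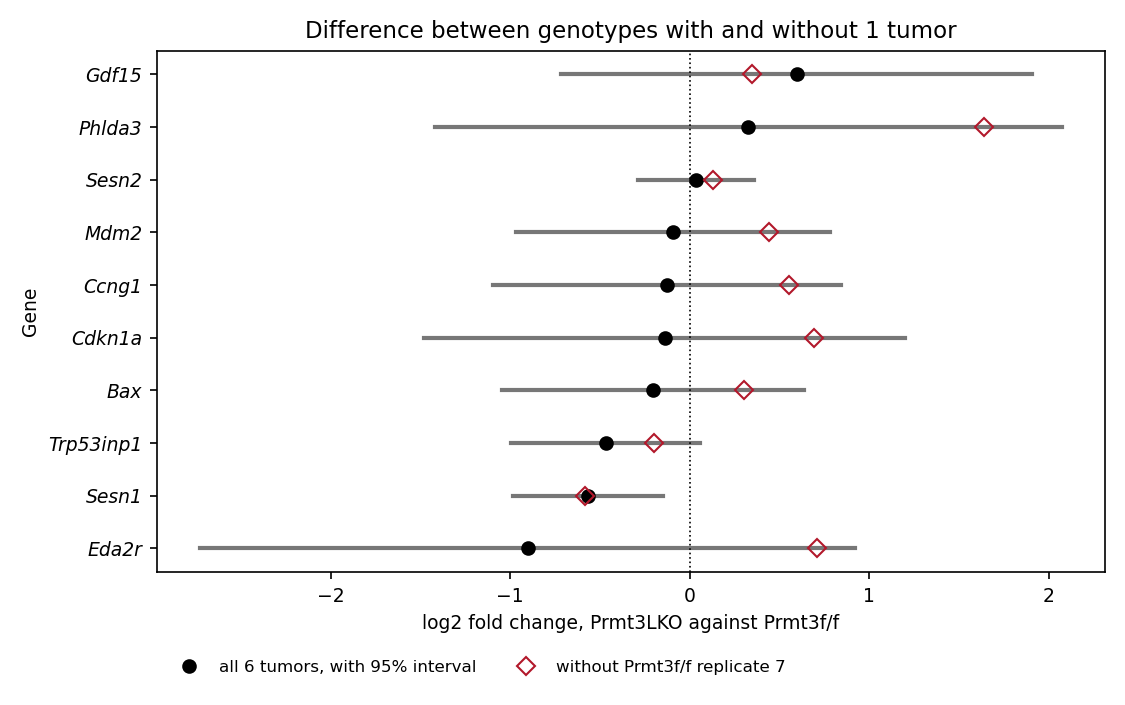
log2 fold change of each of the 10 genes, *Prmt3LKO* against *Prmt3f/f*, from edgeR with all 6 tumors (black points, bars give the 95% interval) and without *Prmt3f/f* replicate 7 (open red diamonds). With all tumors only the interval of *Sesn1* leaves out 0, and without replicate 7 the values of 8 genes are above 0.

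Of the 10 genes, 7 varied more within a genotype than at least 82.8% of the genes tested. The SD of log2 CPM within the groups had a median of 0.62 over the 10 genes and of 0.28 over all genes tested. It was 1.26 for *Phlda3*, 1.24 for *Eda2r*, 0.96 for *Cdkn1a* and 0.90 for *Gdf15*, all wider than in at least 94.2% of genes tested. *Ccng1*, *Mdm2* and *Bax* followed at 0.65, 0.59 and 0.56. *Trp53inp1* at 0.31, *Sesn1* at 0.20 and *Sesn2* at 0.12 were near or under the median of all genes.

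Much of this spread lay in the same tumors. Replicate 7 was the highest of the 6 tumors for 8 of the 10 genes, against 23.7% of all genes tested, the exceptions being *Gdf15*, highest in replicate 93, and *Sesn1*, highest in replicate 66. Replicate 66 was the lowest for 6 genes. After the values had been seen, it was counted that replicates 7, 93 and 94 were the 3 highest tumors for 5 of the 10 genes, against 7.86% of all genes. These were *Cdkn1a*, *Mdm2*, *Ccng1*, *Bax* and *Phlda3*. The median over the 10 genes of log2 CPM relative to each gene's mean was 0.84 in *Prmt3f/f* replicate 7, -0.57 in replicate 66 and -0.24 in replicate 71, and -0.37, 0.22 and 0.11 in *Prmt3LKO* replicates 92, 93 and 94. Each genotype thus held tumors above and below the mean. These counts describe 6 tumors and were not tested.

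**Figure D3:**
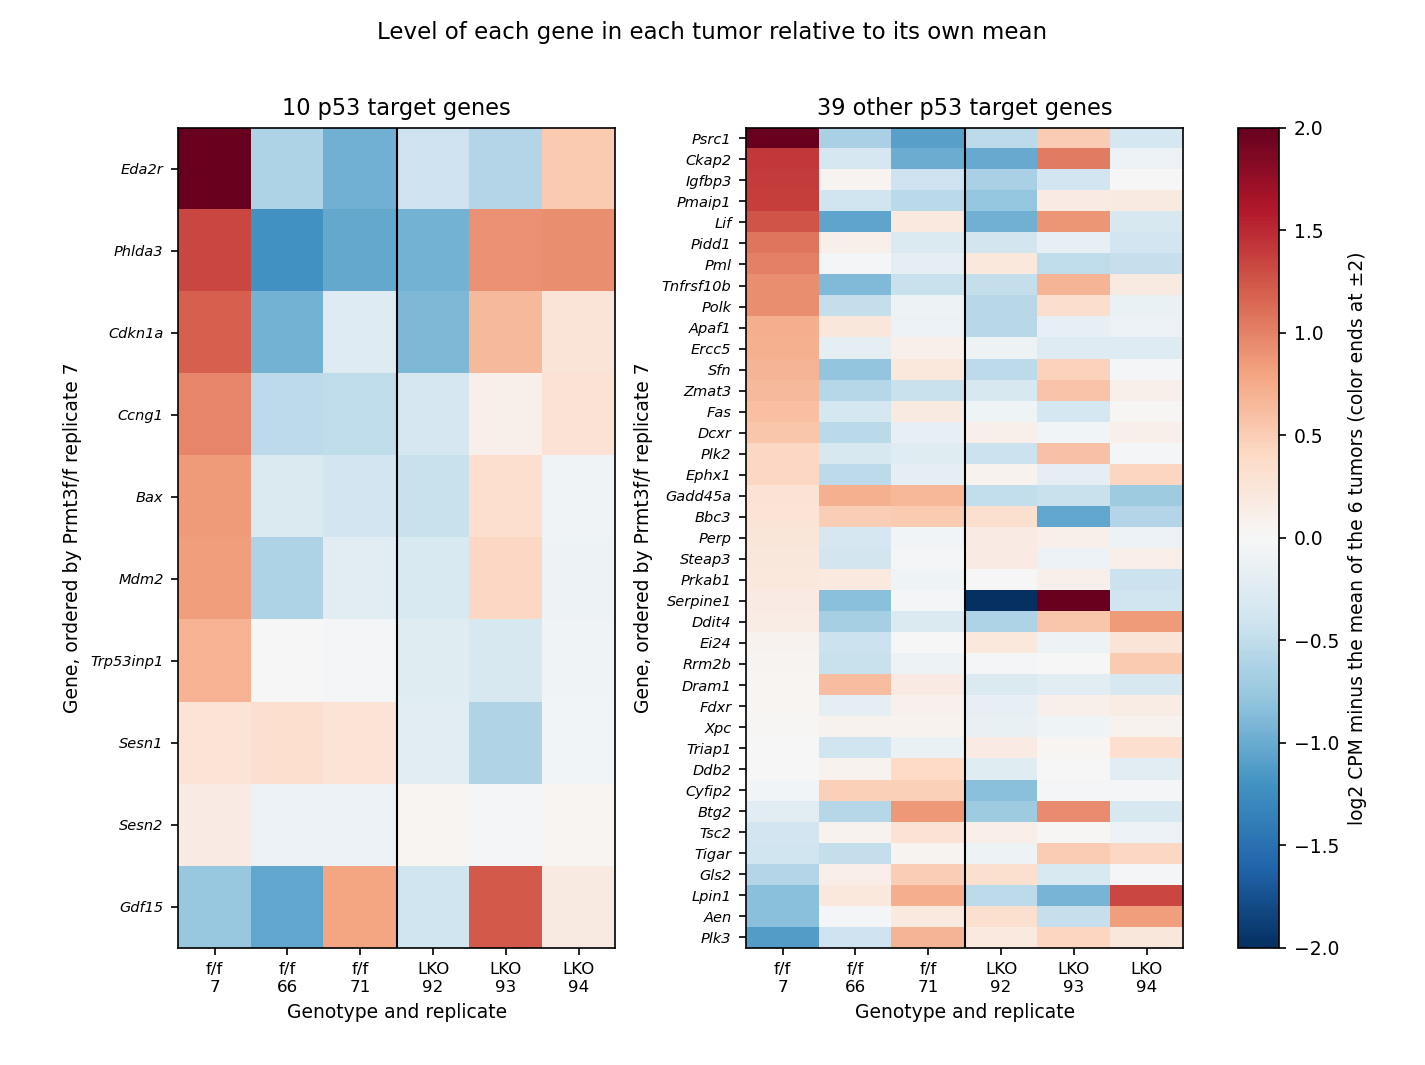
log2 CPM minus the mean of the 6 tumors for the 10 genes (left) and for the 39 other p53 targets tested (right), with 1 column per tumor, *Prmt3f/f* (f/f) before *Prmt3LKO* (LKO), red above and blue below the mean, and colors ending at ±2. Genes are ordered by their value in replicate 7, whose column is the reddest, with a median of 0.84 in the left panel and 0.25 in the right panel.

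Replicate 7 also stood apart in other measures. Of 9 liver tumor markers the sum was 5698 CPM of the total count in replicate 7, 1960 in replicate 66 and 1057 in replicate 71, against 943 to 1541 in *Prmt3LKO* tumors. For 8 cholangiocyte markers it was 4226, 993 and 334 against 207 to 339. Both sums contain *Spp1*, which alone was 4075 CPM of the TMM-scaled library size in replicate 7. It made up most of the tumor marker sum and nearly all of the cholangiocyte sum there, so the 2 sums are largely the same gene. By gene, replicate 7 was highest for 6 of the 9 tumor markers but for only 2 of the 6 cholangiocyte markers tested. The median relative log2 CPM of these cholangiocyte markers was 0.44 in replicate 7 and 0.55 in replicate 66, so replicate 7 did not stand apart in it. Of 12 hepatocyte markers, replicate 7 was lowest for 6 and highest for 1. The share of counts from 13 mitochondrial genes was 6.40% in replicate 7 and 3.80% to 4.93% in the other tumors. The part of these differences in the high values of replicate 7 was not tested.

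The regulators of p53 did not separate the genotypes. *Trp53*, the gene of p53 itself, was 44.5, 28.6 and 26.3 CPM in *Prmt3f/f* replicates 7, 66 and 71 and 22.4, 31.2 and 20.8 CPM in *Prmt3LKO* replicates 92, 93 and 94 (log2 fold change -0.42, SE 0.25, edgeR adjusted p = 0.852). It too was highest in replicate 7 and, among *Prmt3LKO* tumors, in replicate 93, although the level of its mRNA does not give the activity of the protein. *Mdm4*, the partner of Mdm2 in restraining p53, lay between 27.3 and 35.4 CPM in all tumors and was lowest in replicate 7 (log2 fold change 0.076, SE 0.15, edgeR adjusted p = 0.976). The related *Trp63* had 2 counts in replicate 66 and 0 in the other tumors, and *Trp73* had 0 in all 6. Taking 3 counts as the limit, a count of 0 allows up to 0.106 to 0.172 CPM, for counting error only. Of 18 regulators tested, 9 were lower and 9 higher by mean in *Prmt3LKO* tumors, 0 had an unadjusted p under 0.05, and the groups overlapped in all 18. The smallest p on the higher side was that of *Atr*, the kinase of stalled replication forks, at 16.5, 12.0 and 13.3 against 13.8, 21.1 and 20.7 CPM (log2 fold change 0.41, SE 0.21, edgeR adjusted p = 0.800). Replicate 7 was highest for 5 of the 18 and lowest for 5. The largest fold change was that of *Cdkn2a*, which like *Cdkn1a* was highest in replicate 7 and next in 93. It was 35.2, 3.64 and 2.95 against 6.12, 11.7 and 7.44 CPM (log2 fold change -0.72, SE 0.89, edgeR adjusted p = 0.956).

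A list of 40 other p53 targets, 39 of them tested, resembled the 10 genes in the tumor that was highest. Replicate 7 was highest for 18 of the 39 (46.2%, against 23.7% of all genes tested), replicate 66 lowest for 15 and replicate 92 lowest for 11. Replicates 7, 93 and 94 were the 3 highest for 8 (20.5%), against 7.86% of all genes tested. This order was not particular to p53 targets. It was found for 23.3% of the proliferation genes described below, 16.7% of the regulators and 15.8% of the relatives and partners. For the repair genes it was 15.6%, and for the targets of ATF4 and CHOP 6.25%. The median relative log2 CPM was 0.25, -0.34 and -0.031 in *Prmt3f/f* and -0.24, 0.0090 and -0.029 in *Prmt3LKO* tumors, so the differences between tumors were smaller than over the 10 genes. Between the genotypes, 21 were lower and 18 higher by mean, with a median log2 fold change of -0.065. At an unadjusted p under 0.05, 2 were lower and 1 higher, near the 4.37% and 2.2% of all genes tested, and 0 were called after adjustment.

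The clearest of them was *Gadd45a*, which encodes a growth arrest and DNA repair protein that is also induced by other stresses. It was 4.80, 6.44 and 6.22 CPM in *Prmt3f/f* replicates 7, 66 and 71 and 2.74, 2.84 and 2.36 CPM in *Prmt3LKO* replicates 92, 93 and 94. The groups were well apart, at means of 5.82 ± 0.890 and 2.65 ± 0.253 CPM (SD, n = 3 each), and replicate 7 was the lowest of its group (log2 fold change -1.13, SE 0.22, edgeR unadjusted p = 0.00116, adjusted p = 0.592). DESeq2 gave an adjusted p of 0.0263 and was the only alternative run that placed it past the limits. *Tigar*, which turns glucose away from glycolysis, was higher by mean in *Prmt3LKO* tumors, at 7.20, 11.1 and 10.4 against 5.86, 5.55 and 8.02 CPM, with overlap between the groups (log2 fold change 0.56, SE 0.24, edgeR unadjusted p = 0.0479, adjusted p = 0.755).

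Among 19 tested relatives and binding partners of the 10 genes, replicate 7 was highest for 9 (47.4%). At an unadjusted p under 0.05, 3 were lower and 0 higher in *Prmt3LKO* tumors, where 4.37% and 2.2% of all genes were. The smallest p was that of *Ccng2*, the paralog of *Ccng1* and a growth arrest gene of quiescent cells, at 21.5, 12.9 and 18.9 CPM in *Prmt3f/f* and 11.5, 9.88 and 10.4 CPM in *Prmt3LKO* tumors. All *Prmt3LKO* tumors were below all *Prmt3f/f* tumors, unlike for *Ccng1* (log2 fold change -0.74, SE 0.21, edgeR unadjusted p = 0.00838, adjusted p = 0.606). The difference between the paralogs was not tested. *Eda*, whose product in one splice form is the ligand of Eda2r, lay between 0.457 and 1.91 CPM (log2 fold change 0.77, SE 0.49, edgeR adjusted p = 0.872), and the hindbrain receptor of Gdf15, *Gfral*, had too few counts to be tested.

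Of 32 DNA repair and checkpoint genes, 21 were lower and 11 higher by mean in *Prmt3LKO* tumors, with 0 at an unadjusted p under 0.05. The groups did not overlap for 5, all lower: *Mdc1*, *Ercc1*, *Clspn*, *Rad9a* and *Hus1*, where 6.6% of all genes tested were lower without overlap. In each of the 5 the nearest values of the groups lay close together. For *Ercc1* the relative log2 CPM was 0.125 in *Prmt3f/f* replicate 71 and 0.122 in *Prmt3LKO* replicate 93. *Rad9a* was 4.04 CPM in *Prmt3f/f* replicate 71 and 3.87 in *Prmt3LKO* replicate 94. *Rad9a* and *Hus1* encode subunits of the same checkpoint clamp, and *Rad9a* had the smallest p of the list (log2 fold change -0.63, SE 0.30, edgeR adjusted p = 0.774). On the higher side it was *H2afx*, the histone phosphorylated at DNA breaks (log2 fold change 0.24, SE 0.15, edgeR adjusted p = 0.870). Replicate 7 was highest for 12 (37.5%).

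Of 30 proliferation genes, replicate 7 was highest for 19 (63.3%) and replicate 93 for 8 (26.7%). Their median relative log2 CPM was 0.54, -0.015 and -0.35 in *Prmt3f/f* replicates 7, 66 and 71 and -0.33, 0.30 and -0.21 in *Prmt3LKO* replicates 92, 93 and 94. The tumors with high *Cdkn1a* thus included those with the highest proliferation genes, while replicate 94, behind only replicates 7 and 93 for *Cdkn1a*, was below the mean. Between the genotypes 2 were lower at an unadjusted p under 0.05 and 0 higher, near the 4.37% and 2.2% of all genes tested. *Mcm4*, a subunit of the replicative helicase, was 10.8, 7.98 and 6.68 against 5.49, 5.14 and 5.63 CPM without overlap (log2 fold change -0.65, SE 0.22, edgeR unadjusted p = 0.0201, adjusted p = 0.657), and *Mcm6* and *Mcm7* were lower without overlap too, which makes 3 of the 30 where 6.6% of all genes were. *Ccne1*, the cyclin of entry into S phase, was 11.1, 8.82 and 7.49 against 11.6, 19.2 and 9.75 CPM (log2 fold change 0.57, SE 0.28, edgeR adjusted p = 0.784).

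The targets of ATF4 and CHOP, factors of a stress response that can also induce *Sesn2* and *Gdf15*, were seldom highest in replicate 7. Of 16 tested, it was highest for 1 (6.25%), and their median relative log2 CPM there was -0.42, with the lowest median, -0.57, in replicate 92 and the highest, 0.31, in replicate 93. *Gdf15* was also highest in 93 and below its mean in 7 and 92, but its lowest tumor was 66. By gene, replicate 66 was most often the highest tumor of the 16 targets (6), ahead of 93 (5). In replicate 71 the relative log2 CPM of *Gdf15* was 0.78, where the median of the targets was -0.064. *Ddit3*, the gene of CHOP, was higher in all *Prmt3LKO* tumors, at 13.9, 17.96 and 15.8 against 9.0, 11.99 and 11.9 CPM (log2 fold change 0.53, SE 0.18, edgeR unadjusted p = 0.0194, adjusted p = 0.652). Its target *Trib3*, a pseudokinase, was 56.0, 30.5 and 28.0 CPM in *Prmt3f/f* and 18.8, 36.3 and 19.7 CPM in *Prmt3LKO* tumors, with overlap (log2 fold change -0.61, SE 0.35, edgeR adjusted p = 0.831).

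**Figure D4:**
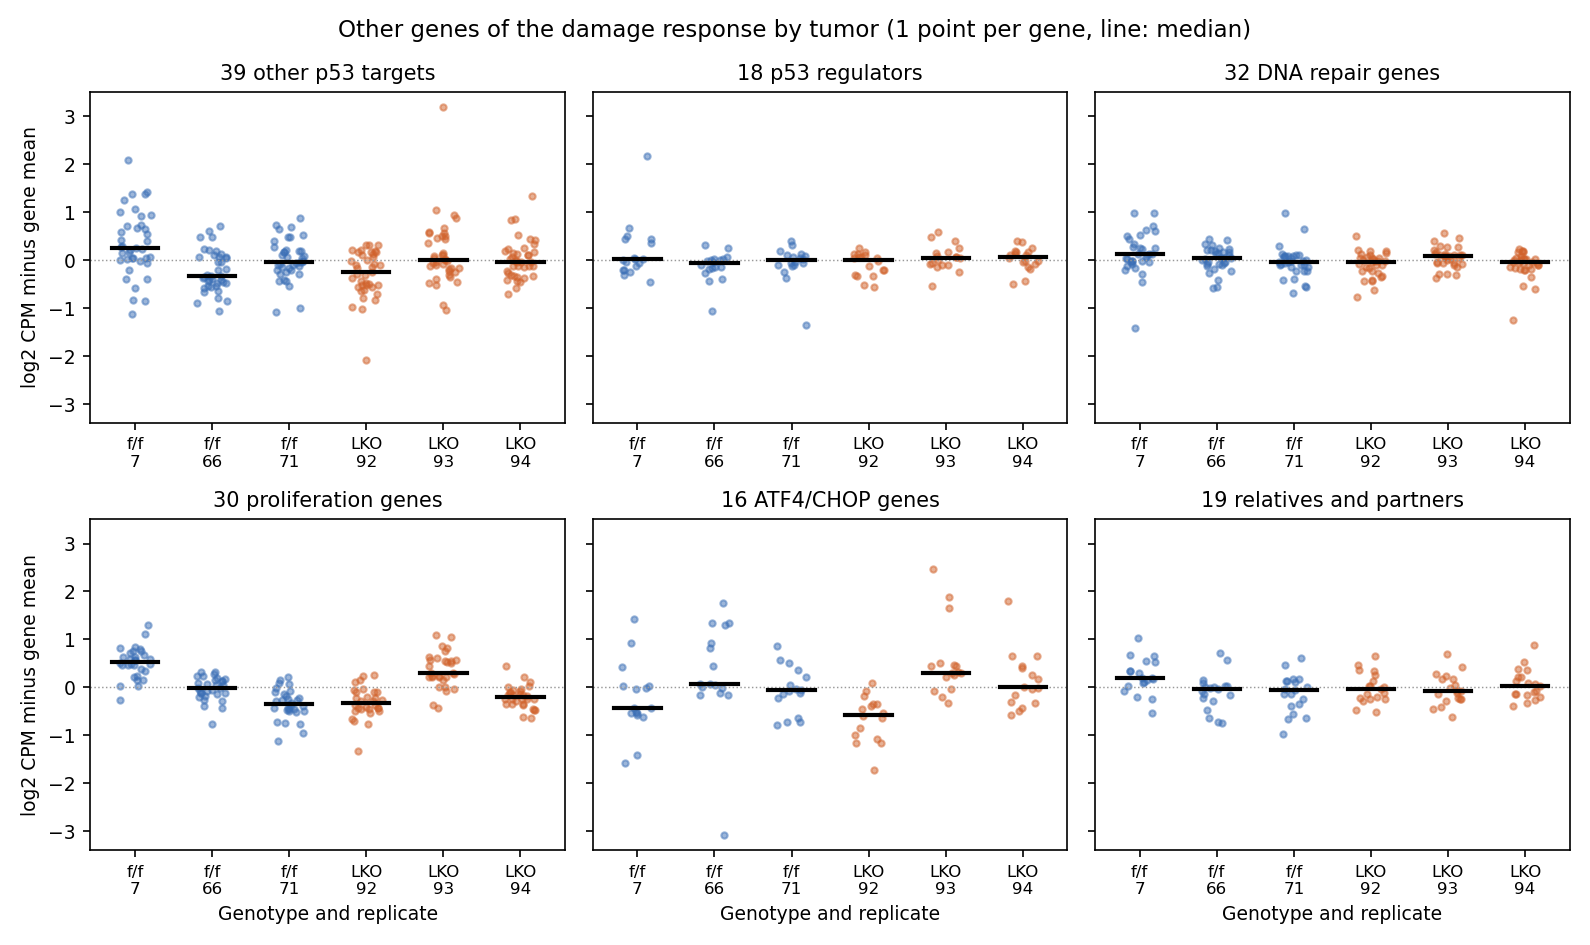
log2 CPM minus the mean of the 6 tumors for every tested gene of 6 lists (1 point per gene, black line at the median) in each tumor, *Prmt3f/f* (f/f, blue) before *Prmt3LKO* (LKO, orange). The median in replicate 7 is above 0 for the other p53 targets (0.25) and the proliferation genes (0.54), near 0 for the regulators (0.019) and below 0 for the ATF4 and CHOP targets (-0.42).

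Markers of other cells moved with the genotype beside the genes whose groups did not overlap. The sum of 16 leukocyte markers was 670, 983 and 442 CPM of the total count in *Prmt3f/f* replicates 7, 66 and 71 and 303, 294 and 361 in *Prmt3LKO* replicates 92, 93 and 94, and all 16 were lower by mean in *Prmt3LKO* tumors. The sum of 9 kidney markers was 3.07 to 4.14 against 8.88 to 13.3 CPM, with 2 of the 9 never above 3 counts. Only 3 of the 9 had enough counts to be tested. Sums of 8 endothelial markers (273 to 348 against 286 to 308 CPM) and of 10 stromal markers (487 to 1040 against 491 to 796 CPM) overlapped. The part of these cells in the lower values of *Sesn1*, *Trp53inp1*, *Gadd45a*, *Ccng2* and *Mcm4* and in the higher values of *Ddit3* was not tested.

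Genes with the pattern nearest to *Cdkn1a* were sought among 12143 genes with a mean of at least 1 CPM, leaving out predicted genes with Gm or Rik names. The measure was the root mean square distance of relative log2 CPM over the 6 tumors. The nearest was *Casp4*, an inflammatory caspase, at a distance of 0.20, with 22.2, 3.41 and 7.28 CPM in *Prmt3f/f* replicates 7, 66 and 71 and 4.86, 12.3 and 8.24 CPM in *Prmt3LKO* replicates 92, 93 and 94. Next came *Tnfrsf10b*, a death receptor for TRAIL and itself in the list of other p53 targets, at 0.22, with 17.7, 4.95 and 6.75 against 6.57, 14.8 and 10.5 CPM. *Gtse1*, which encodes a microtubule-associated protein that restrains p53 in G2 phase, followed at 0.23, with 12.4, 3.36 and 3.94 against 3.66, 7.17 and 7.54 CPM. The other genes were *Rps6ka5*, a kinase of the stress response, at 0.27 and *Tnfrsf22*, a decoy receptor for TRAIL, at 0.29. All 5 were highest in replicate 7, which their choice by likeness to *Cdkn1a* favored, so this is no separate result. Of the 10 genes, *Mdm2* was the 29th nearest to *Cdkn1a*, *Ccng1* the 42nd, *Bax* the 57th and *Phlda3* the 99th, whereas *Sesn1* was the 8533rd and *Gdf15* the 9566th.

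**Figure D5:**
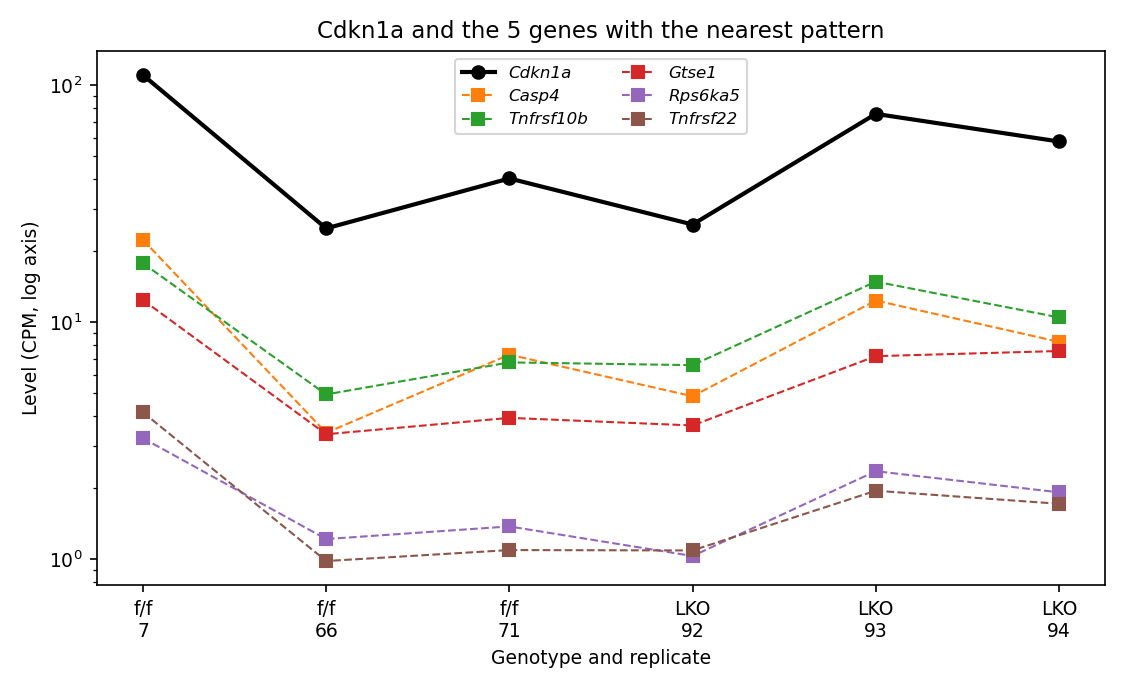
Level of *Cdkn1a* (black) and of the 5 genes nearest to it in pattern (dashed) in each of the 6 tumors, in CPM on a log axis, with *Prmt3f/f* (f/f) before *Prmt3LKO* (LKO). All 6 lines peak in replicate 7 and are higher in replicates 93 and 94 than in 66, 71 and 92, and *Cdkn1a* runs from 24.8 to 110.1 CPM. The 5 genes were chosen for their likeness to *Cdkn1a*, so the shared shape follows from the choice.

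Of the 22 genes with a p53 tandem in a promoter window, 6 were tested. Apart from *Cdkn1a* and *Ccng1*, which were counted above, 3 of the other 4 were highest in replicate 7, as were 23.7% of all genes tested. They were *Gtse1*, already named among the genes nearest to *Cdkn1a*, *Rps27l* and, by a small margin, *Calhm2*, which was 4.66 CPM in replicate 7, 4.07 in replicate 94 and lowest, at 1.67, in replicate 93. *Mthfd1* was highest in replicate 94. *Rps27l*, which encodes a ribosomal protein paralog, followed the tumors as *Ccng1* did, at 103.3, 39.4 and 43.2 CPM in *Prmt3f/f* and 54.2, 80.4 and 74.1 CPM in *Prmt3LKO* tumors. The tandems of *Gtse1* and *Rps27l* are shown whole, in capitals, for comparison with those of *Cdkn1a* and *Ccng1*.
Gtse1, chr15:85859945-85859964, plus strand: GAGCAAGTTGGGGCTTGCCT
Rps27l, chr9:66946296-66946315, plus strand: GGGCTTGTTGAGACTTGTCC
The tandem of *Gtse1* begins at the base before its start, and that of *Rps27l* lies 117 to 98 bases before its start. Near-identical copies of ribosomal genes can share reads, so the level of *Rps27l* is uncertain.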

How the data were processed

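RNA was measured by paired-end RNA-seq in 3 tumors of each genotype. The authors extracted RNA with TRIzol and aligned reads to GRCm38 with HISAT2, and the submitters' processing notes list HISAT2 2.0.4, StringTie 1.3.0 and bcl2fastq 2.19. The deposited table gives for each gene a count, a whole number that was not normalized, and an FPKM, which the authors divided by length and library. Empty rows (1013830) were dropped. The annotation release, the counter and its use of strand are not given in the sources used here.

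Counts were filtered by filterByExpr (minimum count 10, minimum total 15), TMM-scaled and tested by the quasi-likelihood test of edgeR 4.0.16 (R 4.3.3), with Benjamini-Hochberg adjustment over 13892 genes. Calls needed an adjusted p under 0.05 with a 2-fold or larger change in either direction. log2 CPM used a prior count of 2, and marker sums are CPM of the total count. Gene overlaps were read from GENCODE M21. The tests were tried on simulated data. Depth was 18440244 to 27976598 counts, and 3 tumors per group limit the precision.

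Members and lists were chosen with earlier results of these data known. Named were the 10 genes, *Prmt3*, *Trp53*, *Trp63*, *Trp73*, *Mdm4*, the gene with the smallest p in each direction in each list, and the 5 genes nearest to *Cdkn1a* by distance. *Cdkn2a*, *Mdc1*, *Ercc1*, *Clspn*, *Hus1*, *Mcm6* and *Mcm7* were named after their values were seen, *Rps27l*, *Calhm2* and *Mthfd1* for their promoter match, and *Gfral* as a receptor. Alternatives were DESeq2 1.42.0, limma-voom (limma 3.58.1), the edgeR exact test, no TMM, filters at 1 count or at 1 CPM on average, log2 of FPKM plus 1, and leaving out single tumors.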

Additional observations from a re-analysis of the deposited data

How the results depend on the processing

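No paired analysis was possible because the genotypes share no replicate number. None of the 10 genes passed the limits under any alternative. Over the genes tested, 44 lower and 10 higher genes passed with DESeq2, 35 and 5 with the exact test of edgeR, and 2 lower genes without the filter, against 0 in the main test. Of 130 values of the 10 genes, 114 kept their direction and 16 reversed. With limma-voom the log2 fold change was 0.0016 for *Cdkn1a*, 0.014 for *Mdm2*, 0.024 for *Ccng1*, 0.15 for *Gtse1* and 0.0078 for the median of the 10 genes. With FPKM it was 0.0040 for *Ccng1* and 0.013 for *Gtse1*. The cause was not tested.

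With single tumors left out, it ran from -0.50 to 0.69 for *Cdkn1a*, -0.36 to 0.44 for *Mdm2*, -0.38 to 0.55 for *Ccng1*, -0.42 to 0.30 for *Bax*, -0.59 to -0.20 for *Trp53inp1*, 0.017 to 1.40 for *Gdf15*, -0.065 to 1.64 for *Phlda3*, -1.35 to 0.71 for *Eda2r*, -0.69 to -0.42 for *Sesn1*, -0.012 to 0.13 for *Sesn2* and -0.38 to 0.39 for their median. For the other named genes that reversed, it ran from -0.013 to 0.15 for *Mdm4*, -0.79 to 0.65 for *Casp4*, -0.20 to 0.85 for *Tnfrsf10b*, -0.40 to 0.74 for *Gtse1*, -0.39 to 0.44 for *Rps6ka5* and -0.71 to 0.60 for *Tnfrsf22*. The highest value was without replicate 7 except for *Gdf15* (without replicate 71), *Sesn1* (without replicate 93) and *Mdm4* (without replicate 92). *Prmt3* passed the limits with DESeq2 and the exact test (log2 fold change -1.55 in both), and *Gadd45a* with DESeq2 (-1.13).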
